A study of Saccharomyces cerevisiae with 12 samples.

Results

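The mitochondrial ribosome translates the few proteins encoded by mitochondrial DNA, nearly all of them subunits of the respiratory chain and the ATP synthase. In budding yeast its large subunit holds the peptidyl transferase centre and the tunnel through which new proteins leave. Its proteins are encoded almost entirely in the nucleus, translated in the cytosol and imported, and many of their mRNAs are bound by Puf3, a Pumilio-family protein that recognises a short element in the 3′ UTR and directs the fate of the mRNA to the mitochondrial surface, to translation or to decay according to the carbon source. The genes described here are 37 nuclear genes of this subunit, taken by systematic name: MRPL genes with RML2, MRP7, MRP20 and MRP49. MRPL32 is not among them and is counted below with the further large subunit genes. They are 37 of the 7123 genes in the count table, and all 37 were kept by the filter (10 or more reads over the 12 libraries), which left 6490 genes. By textbook assignment, 23 of them are homologues of bacterial ribosomal proteins and 14 are specific to mitochondria.

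RNA was sequenced from *S. cerevisiae* WT cells and from *rad30Δ* cells, which lack the gene of the translesion polymerase Polη, with 3 libraries in each of 4 groups. Cells of both strains, derivatives of W303, grew in medium with 2% raffinose and were arrested in G2/M with 80 µg/ml benomyl for 3 hours (G2/M arrested cells). The other groups received 2% galactose for 1 hour, which switches on the HO endonuclease from a *GAL* promoter and so cuts the *MAT* locus (cells after DSB induction). Galactose and HO were always given together, so that effects of the break cannot be told apart from those of galactose. Per the study's methods, cells were collected before and after this hour, so effects of the added time cannot be told apart from them. *RAD30* had 0 reads in the 6 *rad30Δ* libraries and 38.6 to 52.4 CPM in the WT libraries. CPM, the level used throughout, is the read count of a gene per megaread of the library size after TMM scaling. *GAL1* rose from between 19.2 and 33.7 CPM before to between 6116 and 7402 CPM after galactose. The WT libraries had transcripts of a-cells (*STE2* at 376 to 596 CPM) and the *rad30Δ* libraries had those of α-cells (*STE3* at 82.1 to 663 CPM), with *STE2* at 13.4 to 19.9 CPM in *rad30Δ* and *STE3* at 4.72 to 12.5 CPM in WT libraries. *RAD30* and mating type therefore differ together between the strains, and their effects cannot be told apart. In the study's strain list, the *rad30Δ* strains of the α mating type carry further alleles and inserted constructs. Whether the sequenced strains differed in these was not tested. In bulk RNA, a change in RNA per cell and a change in the mix of cells cannot be told apart either.

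Library totals ranged from 5442935 to 7289514 reads. One library, replicate 3 of *rad30Δ* cells after DSB induction, had values unlike the rest, with a normalization factor of 0.873 (0.971 to 1.05 in the other 11 libraries) and 0.0335% of its reads on protein genes of the mitochondrial genome (0.00125% to 0.00853% elsewhere). Among the large subunit genes, 33 of 37 had their highest level of all 12 libraries in it. The counts and medians below that move with it are given with and without it. The labels do not say whether libraries came from separate cultures, so the tests measure the spread between these libraries, which may be technical.

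The element that Puf3 recognises was searched for as TGTANATA (N, any base) on the coding strand within 200 bases after each stop codon, in the R64 genome, the assembly that sacCer3 names. It was found after 37 of 37 large subunit genes, against 844 of 5986 nuclear protein genes (14.1%). The first match began 13 to 136 bases after the stop codon (median 52), and 8 genes had 2 matches. At the variable position, 17 of the first matches had A, 13 had T, 6 had C and 1, in MRPL3, had G. A cytosine 2 bases before the element, which is known to add to Puf3 binding, stood in 28 of 37 genes (75.7%), against 26.9% of the other 798 nuclear genes in which that base could be read. Sites of 9 genes with the smallest p-values or the largest differences in the comparisons below, and that of MRPL3 for its G, are printed 5′ to 3′ on the coding strand, with the element in capitals and 10 bases on either side, to show the letters these mRNAs share.
MRPL6 (YHR147C, chrVIII:392536-392563, minus strand): gggaatacctTGTAAATAtcctatgaaa
MRPL9 (YGR220C, chrVII:936024-936051, minus strand): actacaatcaTGTACATAcatcaataat
MRPL10 (YNL284C, chrXIV:103076-103103, minus strand): tattctcactTGTACATAccttaagata
MRPL11 (YDL202W, chrIV:99268-99295, plus strand): tattcaatcaTGTACATAcatcatcaaa
RML2 (YEL050C, chrV:59532-59559, minus strand): tccacaatcaTGTAAATAtaaatattga
MRPL7 (YDR237W, chrIV:937565-937592, plus strand): ccattcgtcaTGTAAATAtataaactgt
MRPL22 (YNL177C, chrXIV:303533-303560, minus strand): attgtgattcTGTAAATAacaactagtt
MRPL36 (YBR122C, chrII:483851-483878, minus strand): taaacagcctTGTATATAccgcaacata
MRPL51 (YPR100W, chrXVI:730251-730278, plus strand): taattatactTGTATATAtaatttgggg
MRPL3 (YMR024W, chrXIII:323055-323082, plus strand): tttgccatttTGTAGATAgagaactcct

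Among these sites, all but those of MRPL22 and MRPL3 have the cytosine 2 bases before the element, and MRPL9, MRPL10 and MRPL11 share the element TGTACATA. The same search found the element in 30 of 31 genes of the mitochondrial small subunit, in 13 of 13 mitochondrial aminoacyl-tRNA synthetase genes and in 8 of 8 further large subunit genes, but in 4 of 30 nuclear genes of the respiratory chain and ATP synthase and in 3 of 76 genes of the cytosolic large subunit. In the 250 bases before the start codon, searched on both strands, AATTTT was found in 15 of 37 large subunit genes (40.5%, against 48.6% of all nuclear protein genes), and CCAAT, the core letters of the Hap2/3/4/5 site, in 10 of 37 (27%, against 35.4%). CCAAT was found before 26 of the 30 respiratory chain and ATP synthase genes. A match is a description of letters, and binding was not measured.

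**Figure D1:**
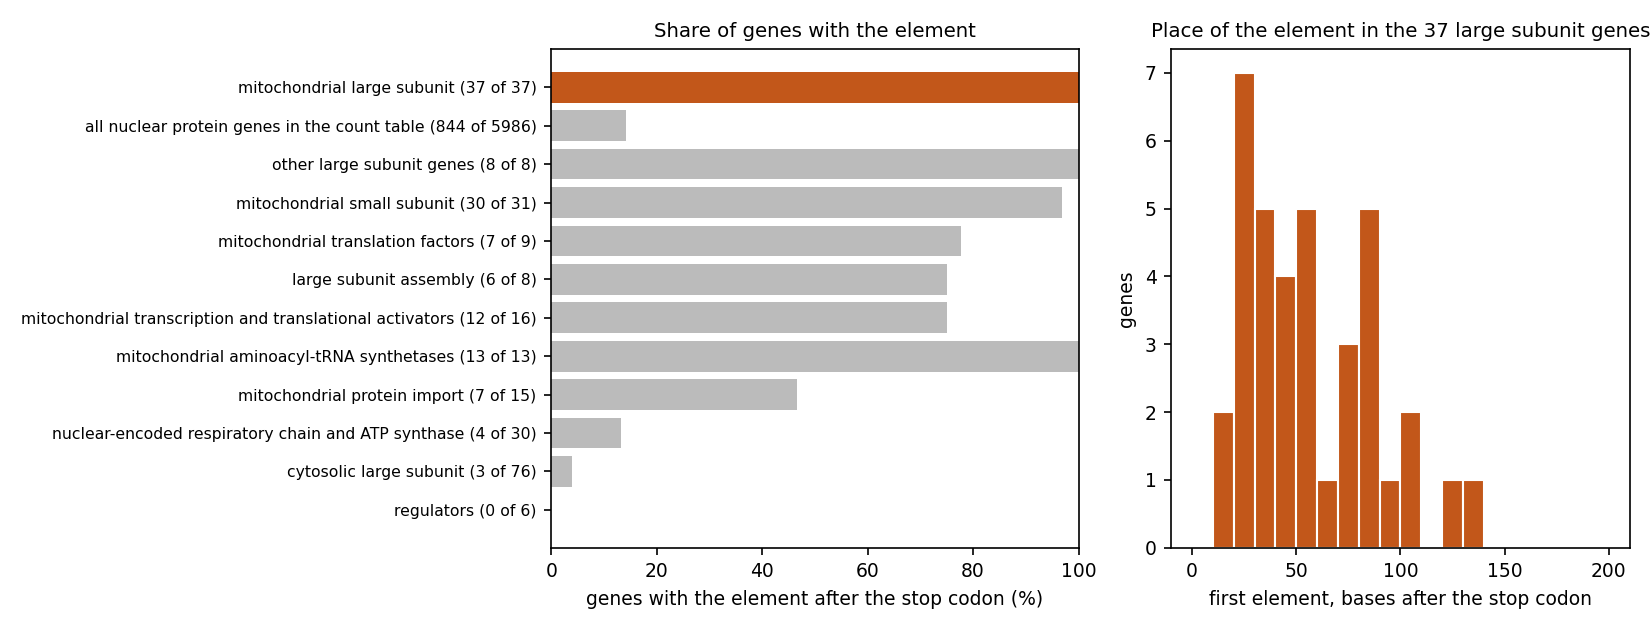
Left, the share (%) of genes with the Puf3 element in the 200 bases after the stop codon, by gene list, with counts beside each name. Right, the distance in bases from the stop codon to the first element in the 37 large subunit genes; all lie between 13 and 136 bases.

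The levels of the genes were compared per kb of coding length, in G2/M arrested WT cells. MRPL31 (YKL138C), a mitochondria-specific protein, was highest at 541 CPM per kb, followed by MRPL37 (YBR268W) at 488 and MRPL39 (YML009C), a homologue of bacterial L33, at 468 CPM per kb. The lowest apart from MRPL38 were MRPL51 at 80.01, MRPL25 (YGR076C) at 161, MRPL35 (YDR322W) at 165 and MRPL9 at 165 CPM per kb. Thus 36 of the 37 genes, whose products are part of 1 particle, lay between 80.01 and 541 CPM per kb. MRPL38 (YKL170W), the homologue of bacterial L14, was the exception with 2 to 15 reads per library (1.51 CPM per kb), against 147 to 3182 reads for every other gene of the group. The cause of its low count was not tested. In the R64 annotation MRPL51 overlaps a gene on the opposite strand and MRPL19 a gene on the same strand, so some of their reads could belong to either. Only 6044 of the 7123 counted genes matched R64. Overlaps with the others were not searched, so MRPL38 or further members may also share reads with a counted gene.

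In G2/M arrest, the large subunit genes were higher in *rad30Δ* than in WT cells. The summed level of the 37 genes was 7071, 6695 and 6583 CPM in the WT libraries and 9096, 8860 and 9445 CPM in the *rad30Δ* libraries. The groups did not overlap, and the ratio of their means was 1.35. The log2 fold change was positive for 37 of 37 genes, with a median of 0.44, against −0.001 over all genes tested. In the quasi-likelihood test of edgeR, with p-values adjusted over all genes by the Benjamini-Hochberg method, 21 of 37 rose, 0 fell and 16 did not pass, while 4.71% of all genes tested rose and 6.1% fell. In 36 of 37, all but MRPL38, every *rad30Δ* library was above every WT library, as in 15.7% of all genes tested.

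**Figure D2:**
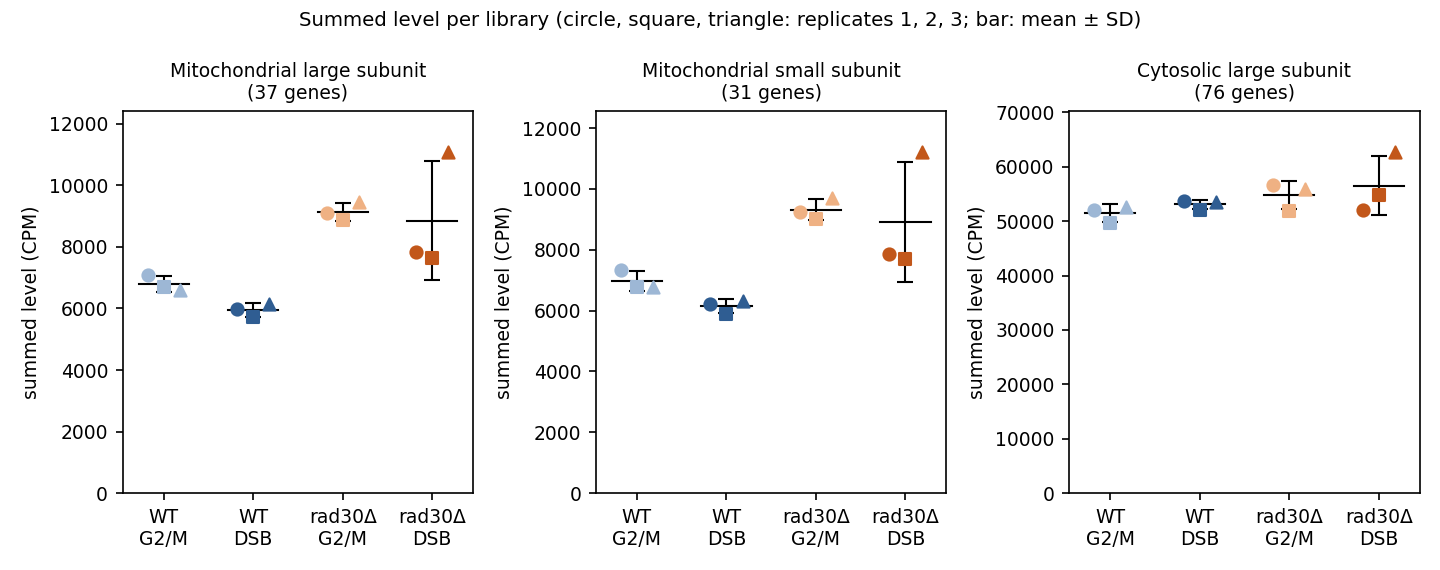
Summed level (CPM) of the genes of the mitochondrial large subunit, the mitochondrial small subunit and the cytosolic large subunit in each library, by group; bars are the mean ± SD of 3 libraries. For the mitochondrial large subunit, the G2/M arrested *rad30Δ* libraries lie between 8860 and 9445 CPM, above the WT libraries at 6583 to 7071 CPM, and replicate 3 of *rad30Δ* cells after DSB induction lies at 11068 CPM.

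Of the homologues of bacterial proteins, the smallest p belonged to MRPL6, the counterpart of L6 in the core of the subunit. It had 169, 164 and 162 CPM in WT and 246, 225 and 248 CPM in *rad30Δ* libraries, a log2 fold change of 0.54 ± 0.09 (SE; adjusted p = 0.0024). MRPL36, the counterpart of L31, which sits in the central protuberance facing the small subunit, had 232, 233 and 223 CPM in WT and 309, 308 and 318 CPM in *rad30Δ* libraries, with a log2 fold change of 0.44 ± 0.09 (adjusted p = 0.0048). In both genes the gap between the strains was wider than the range within either. MRPL11, the counterpart of L10, which forms the base of the factor-binding stalk, had 224, 228 and 222 CPM against 300.2, 289 and 297 CPM, a log2 fold change of 0.39 ± 0.08 (adjusted p = 0.0057). MRPL22, the counterpart of L22, which lines the exit tunnel, had 243, 240.3 and 227 CPM against 335, 321 and 356 CPM, a log2 fold change of 0.51 ± 0.10 (adjusted p = 0.0064). MRPL10, the counterpart of L15, had 178, 192 and 184 CPM against 245, 233 and 219.5 CPM, a log2 fold change of 0.33 ± 0.07 (adjusted p = 0.0089). These genes belong to the core, the stalk, the central protuberance and the tunnel exit, and no library of one strain reached into the range of the other in any of them.

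MRPL51 was the gene of mitochondria-specific origin with the smallest p. It had 32.5, 35.6 and 33.4 CPM in WT and 49.2, 53.1 and 52.5 CPM in *rad30Δ* libraries, a log2 fold change of 0.61 ± 0.13 (adjusted p = 0.0072). This was the second largest log2 fold change, after that of MRPL38 at 1.29 ± 0.50, which rested on few reads and did not pass (adjusted p = 0.13). At the low end, MRPL16 (YBL038W), the counterpart of L16, had 223, 217 and 212 CPM against 257, 257 and 277 CPM, a log2 fold change of 0.28 ± 0.10 (adjusted p = 0.11). MRPL23 (YOR150W), the counterpart of L13, had 221, 201 and 187 CPM against 248, 240.1 and 269 CPM, with a log2 fold change of 0.31 ± 0.17 (adjusted p = 0.30). The groups of MRPL16 and MRPL23 did not overlap either, although neither passed the test.

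By region of the subunit the median log2 fold change lay between 0.39 and 0.47, and differences between regions were not tested. Of 13 core genes 7 rose (median log2 fold change 0.39), of 7 tunnel exit genes 4 rose (0.47), of 5 central protuberance genes 3 rose (0.44), of 4 stalk genes 2 rose (0.46) and of 8 other mitochondria-specific genes 5 rose (0.46). By origin, 14 of 23 homologues of bacterial proteins (median 0.44) and 7 of 14 mitochondria-specific genes (median 0.45) rose. Without replicate 3 of *rad30Δ* cells after DSB induction these counts were 12, 7, 5, 4 and 8 by region, and 22 and 14 by origin, with the same totals. Genes of 700 or more bases of coding length had a median of 0.41 and shorter ones of 0.45, with 18 of each and MRPL38 left out. The number of genes that passed, but not the direction, depended on the libraries in the fit. It was 12, 8 and 7 without WT replicates 1, 2 and 3, and 10 and 9 without *rad30Δ* replicates 1 and 3. For these fits the share over all genes is not given, so their counts cannot be set against it. It was 36 when replicate 3 of *rad30Δ* cells after DSB induction, which enters only through the estimate of the spread, was left out (8.16% of all genes then rose). MRPL6, MRPL10, MRPL11, MRPL22, MRPL36 and MRPL51 passed whichever of the 12 libraries was left out.

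**Figure D3:**
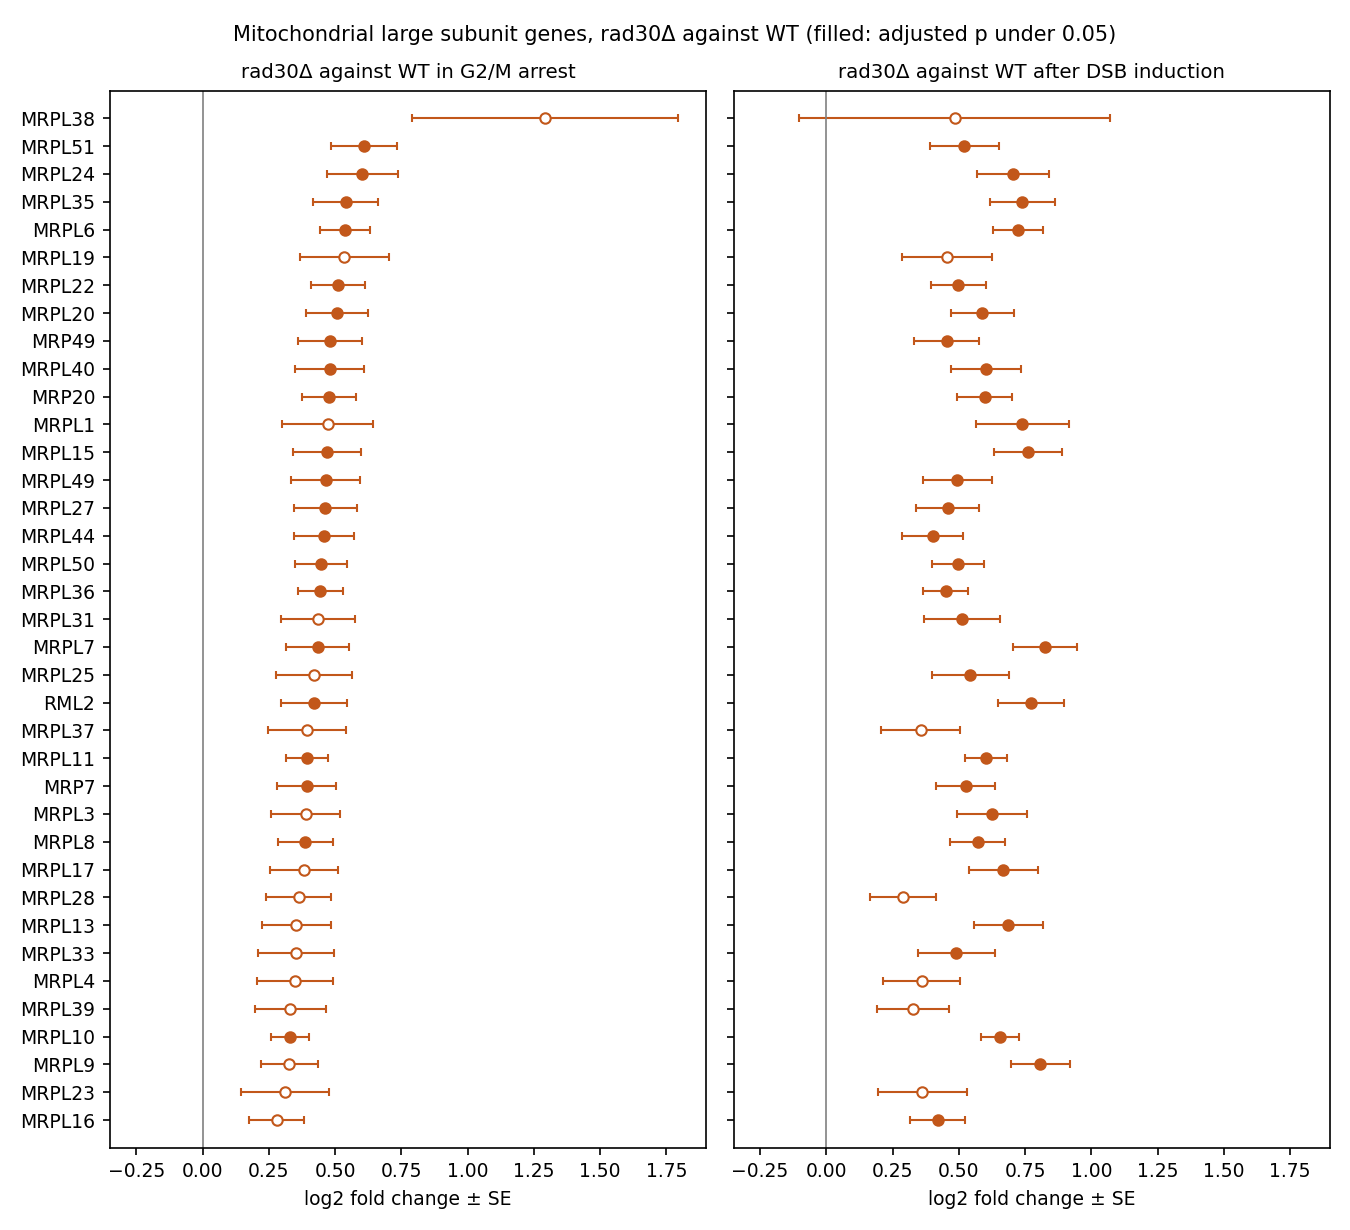
Log2 fold change ± SE of each of the 37 large subunit genes, *rad30Δ* against WT, in G2/M arrest (left) and after DSB induction (right), ordered by the left panel; filled points have an adjusted p under 0.05. All 37 point estimates are above 0 in both panels, with 21 filled on the left and 30 on the right.

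With DSB induction in WT cells, 3 of 37 large subunit genes fell and 0 rose in the test, against 6.29% and 6.07% of all genes tested, so the share that fell was near that of all genes. The summed level was 5979, 5725 and 6150 CPM, below each of the G2/M arrested WT libraries, and the ratio of the means was 0.877. The log2 fold change was negative for 34 of 37 genes with a median of −0.17, against 0.004 over all genes tested. In 20 of 37 genes every library after DSB induction was below every G2/M arrested library, as in 22.9% of all genes tested.

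MRPL9, the counterpart of L3, which reaches towards the peptidyl transferase centre, fell from 142, 135 and 124 CPM to 94.2, 88.9 and 98.4 CPM, a log2 fold change of −0.51 ± 0.11 (adjusted p = 0.010). MRPL10 fell to 144, 139 and 156 CPM, a log2 fold change of −0.34 ± 0.07 (adjusted p = 0.0096). MRPL11 fell to 178, 173 and 184 CPM, a log2 fold change of −0.33 ± 0.08 (adjusted p = 0.018). The libraries of the 2 conditions did not overlap in any of these genes. RML2, the counterpart of L2, also part of the peptidyl transferase centre's surroundings, had 314, 308 and 291 CPM before and 221, 228 and 249 CPM after DSB induction, a log2 fold change of −0.39 ± 0.13 that did not pass (adjusted p = 0.063). At the other end were MRPL23, with 215, 196 and 214 CPM after DSB induction (log2 fold change 0.04 ± 0.17, adjusted p = 0.91), and MRPL28 (YDR462W), a mitochondria-specific protein, with 147, 145 and 136 CPM before and 142, 146 and 147 CPM after (0.02 ± 0.12, adjusted p = 0.94). In MRPL23 and MRPL28 the conditions overlapped. Without WT replicate 2 after DSB induction 0 genes fell, and without *rad30Δ* replicate 2 after DSB induction 6 fell. For these fits the share over all genes is not given, so their counts cannot be set against it. Without *rad30Δ* replicate 3 after DSB induction, again only through the spread, 16 fell (11.3% of all genes).

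The longer members had the more negative values. In WT cells the median was −0.26 for genes of 700 or more bases and −0.09 for shorter ones (log2 fold change, 18 genes of each). Across the 36 genes other than MRPL38, Spearman's rho between coding length and log2 fold change was −0.64, a description across genes that share the same 6 libraries. Across 5867 nuclear protein genes rho was −0.13, and genes of 700 to 1182 bases had a median of −0.02 and those of 213 to 699 bases of 0.05. In *rad30Δ* cells rho over the same 36 genes was 0.26, or 0.12 without replicate 3.

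In *rad30Δ* cells the outcome of DSB induction depended on 1 library. The summed level after DSB induction was 7831 and 7637 CPM in replicates 1 and 2, below the G2/M arrested libraries at 8860 to 9445 CPM, and 11068 CPM in replicate 3, above them. With all libraries 0 genes rose and 0 fell (3.68% and 2.65% of all genes tested), and the median log2 fold change was −0.07. Unadjusted, 1 of 37 was lower and 0 higher at a p under 0.05, against 650 lower and 776 higher of all 6490 genes tested. DESeq2 also called 0, and so did a fit with a replicate block (median −0.09). In none of the 37 genes were all libraries after DSB induction below all G2/M arrested libraries, as they were in 10.5% of all genes tested. Without replicate 3, 17 of 37 genes fell and 0 rose (4.71% of all genes fell), and the log2 fold change was negative for 37 of 37 with a median of −0.26. The ratio of the mean summed levels was 0.968 with and 0.847 without replicate 3, against 0.877 in WT cells.

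MRPL22 had 335, 321 and 356 CPM in G2/M arrest and 278, 246 and 337 CPM after DSB induction, so that replicates 1 and 2 lay below the G2/M arrested libraries and replicate 3 among them. Its log2 fold change was −0.23 ± 0.10 (adjusted p = 0.20), and −0.36 ± 0.08 (adjusted p = 0.014) without replicate 3. MRPL7, the counterpart of L5 in the central protuberance, had 240.5, 254 and 244 CPM before and 238, 226 and 336 CPM after DSB induction. Its log2 fold change of 0.12 ± 0.12 (adjusted p = 0.61) was the highest, and it was −0.09 ± 0.06 (adjusted p = 0.40) without replicate 3. MRPL16, with 254, 256 and 344 CPM after DSB induction, likewise went from 0.11 ± 0.10 (adjusted p = 0.57) to −0.05 ± 0.06 (adjusted p = 0.68). In MRPL7 and MRPL16 replicates 1 and 2 were close to each other and replicate 3 was far above both. MRPL40 (YPL173W), the counterpart of L24 at the tunnel exit, had the smallest adjusted p without replicate 3, at −0.34 ± 0.07 (adjusted p = 0.0075), with 358, 361 and 378 CPM before and 284, 295 and 436 CPM after DSB induction, and was chosen after its values were seen. MRPL38 had the lowest log2 fold change with all libraries, −0.79 ± 0.48 (adjusted p = 0.35), again on few reads. Reads of the protein genes of the mitochondrial genome summed to 383 CPM in replicate 3 and to 12.01 to 82.9 CPM in the other 11 libraries. They are known to be poorly retained by mRNA enrichment, and their part in the levels of replicate 3 was not tested.

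**Figure D4:**
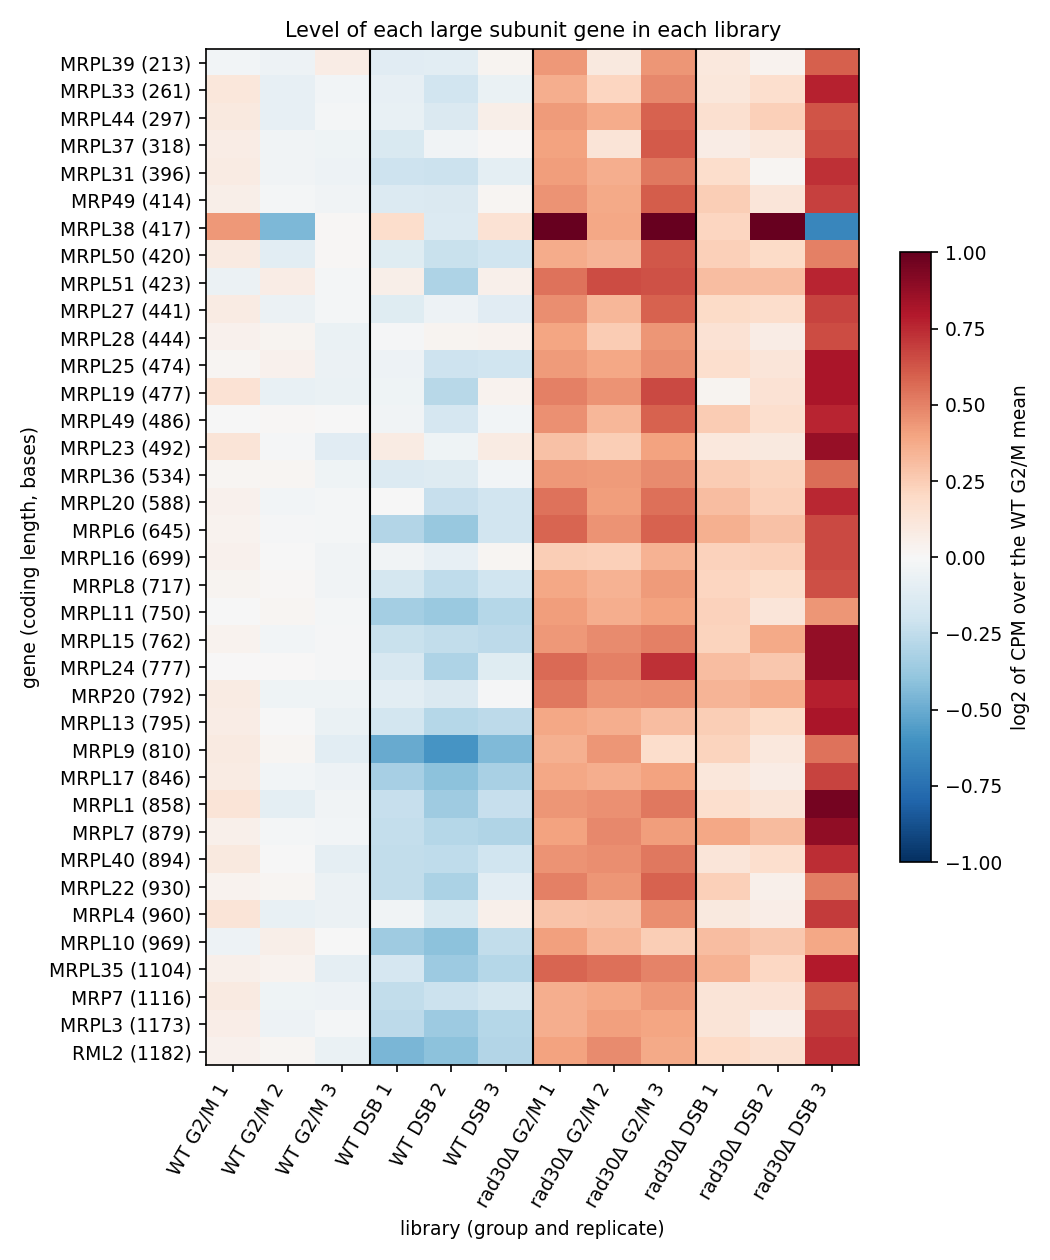
Level of each of the 37 large subunit genes in each of the 12 libraries, as log2 CPM minus the mean log2 CPM of the G2/M arrested WT libraries (colour, cut at −1 and 1), genes ordered by coding length. Replicate 3 of *rad30Δ* cells after DSB induction, the last column, has the highest level of the row in 33 genes.

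After DSB induction the strains again differed in the same direction. In the test 30 of 37 genes were higher and 0 lower in *rad30Δ* than in WT cells, while 11.6% of all genes tested were higher and 11.8% lower, and the median log2 fold change was 0.53 (0.001 over all genes tested). In 35 of 37, all but MRPL19 (YNL185C) and MRPL38, every *rad30Δ* library was above every WT library, as in 17.8% of all genes. Without replicate 3 again 30 of 37 were higher (15% of all genes), and the median was 0.38. The ratio of the mean summed levels was 1.49 with and 1.30 without replicate 3. In 27 of 37 genes all 6 *rad30Δ* libraries, before and after DSB induction, were above all 6 WT libraries, as in 4.88% of all genes tested.

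The gene with the smallest p was MRPL10, with 144, 139 and 156 CPM in WT and 229.5, 222 and 241 CPM in *rad30Δ* libraries, a log2 fold change of 0.66 ± 0.07 (adjusted p = 4.6e-05). Replicate 3 was close to the other *rad30Δ* libraries in this gene. MRPL6 had 135, 127 and 145 CPM against 211, 202 and 260.3 CPM (0.73 ± 0.09, adjusted p = 0.00019), and MRPL11 178, 173 and 184 CPM against 264, 244 and 306 CPM (0.60 ± 0.08, adjusted p = 0.00020). MRPL9 had 94.2, 88.9 and 98.4 CPM against 156, 144 and 194 CPM (0.81 ± 0.11, adjusted p = 0.00026). In these genes even the lowest *rad30Δ* library was well above the highest WT library. With all libraries MRPL7 had the largest difference, with 154, 149 and 148 CPM against 238, 226 and 336 CPM (0.83 ± 0.12, adjusted p = 0.00042), and RML2 had 221, 228 and 249 CPM against 349.7, 339.6 and 505 CPM (0.77 ± 0.13, adjusted p = 0.00095). With all libraries the smallest differences were those of MRPL28, with 142, 146 and 147 CPM against 158, 150.2 and 224 CPM (0.29 ± 0.12, adjusted p = 0.11), and MRPL39, with 91.9, 92.6 and 101 CPM against 107, 102 and 151 CPM (0.33 ± 0.14, adjusted p = 0.10). Neither passed, and in both the gap between the strains was narrow in replicates 1 and 2. Without replicate 3 the log2 fold change was 0.68 ± 0.09 for MRPL9, 0.63 ± 0.06 for MRPL7, 0.62 ± 0.07 for MRPL10, 0.61 ± 0.07 for MRPL6, 0.57 ± 0.07 for RML2 and 0.51 ± 0.06 for MRPL11, all still called. It was then 0.14 ± 0.10 for MRPL39, 0.09 ± 0.07 for MRPL28 and 0.06 ± 0.08 for MRPL23, which was the lowest. By length, the median log2 fold change was 0.66 for genes of 700 or more bases and 0.46 for shorter ones (0.46 and 0.27 without replicate 3).

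Whether DSB induction acted differently in the strains was tested as an interaction, and 0 of 37 genes passed in either direction (0% and 0.0616% of all genes tested passed with a positive and a negative coefficient). Unadjusted, 3 of 37 had a p under 0.05 with a positive and 0 with a negative coefficient, against 458 and 409 of all 6490 genes tested. DESeq2 also called 0. The smallest p-values were those of MRPL10 (0.33 ± 0.10, adjusted p = 0.20), MRPL9 (0.48 ± 0.15, adjusted p = 0.21), MRPL7 (0.39 ± 0.17, adjusted p = 0.34) and RML2 (0.35 ± 0.18, adjusted p = 0.42), all positive, meaning a more positive log2 fold change in *rad30Δ* cells. These coefficients were, without replicate 3 of *rad30Δ* cells, 0.29 ± 0.10, 0.35 ± 0.12, 0.19 ± 0.08 and 0.14 ± 0.09. Again 0 of 37 genes passed in that fit, while 76 of all 6473 genes tested passed with a positive and 65 with a negative coefficient. The median coefficient over the 37 genes was 0.12, and it was −0.10 without replicate 3 of *rad30Δ* cells after DSB induction, so its sign rested on that library. A p that misses the threshold does not show that the strains responded alike.

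Genes that work with the large subunit were counted in the same fit. In G2/M arrested *rad30Δ* cells, 5 of 8 further large subunit genes rose (median log2 fold change 0.42), 17 of 31 small subunit genes (0.45), 6 of 13 mitochondrial aminoacyl-tRNA synthetase genes (0.39), 3 of 9 translation factor genes (0.35), 7 of 16 genes of mitochondrial transcription and translational activators (0.29) and 4 of 15 protein import genes (0.31), and 0 of any of these fell, against 4.71% and 6.1% of all genes tested. Without replicate 3 of *rad30Δ* cells after DSB induction, 8.16% of all genes rose. The list counts were then 8, 28, 11, 7, 10 and 13 in the same order, with 1 import gene called lower. Examples are MNP1, the counterpart of L7/L12 (83.0 ± 6.77 against 128 ± 12.3 CPM, SD, n = 3; adjusted p = 0.026), MRP51, a small subunit protein (295 ± 8.64 against 414 ± 12.9 CPM; adjusted p = 0.00052), ISM1, the mitochondrial isoleucyl-tRNA synthetase (136 ± 2.96 against 222 ± 12.6 CPM; adjusted p = 0.00044), and TUF1, the mitochondrial elongation factor Tu (866 ± 3.86 against 1244 ± 6.70 CPM; adjusted p = 0.015). Of 8 genes of large subunit assembly 0 passed (median 0.11), and 2 passed without that replicate. Unadjusted, 2 of 8 were higher at a p under 0.05, against 706 higher and 785 lower of all 6490 genes tested. Of the 76 genes of the cytosolic large subunit 1 rose (median 0.10; 4 rose and 1 fell without that replicate), and of the 7 protein genes of the mitochondrial genome that could be tested 0 passed, with 0 at an unadjusted p under 0.05.

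After DSB induction, 7 of 8 further large subunit genes, 24 of 31 small subunit genes, 12 of 13 aminoacyl-tRNA synthetase genes, 6 of 9 translation factor genes, 4 of 8 assembly genes, 9 of 16 genes of transcription and translational activators and 13 of 15 import genes were higher in *rad30Δ* than in WT cells, against 11.6% of all genes tested. Without replicate 3 of *rad30Δ* cells, when 15% of all genes were higher, these counts were 6, 22, 12, 6, 2, 9 and 13 in the same order. In the cytosolic large subunit 4 of 76 were higher and 1 was lower (5 and 2 without replicate 3). In WT cells DSB induction lowered 3 of 31 small subunit genes, among them NAM9 (297 ± 7.02 to 225 ± 7.03 CPM, adjusted p = 0.014), and 3 of 15 import genes, among them PAM18, a part of the import motor (143 ± 5.39 to 78.3 ± 5.50 CPM, adjusted p = 4.1e-05), while 6.29% of all genes tested fell. Without replicate 3 of *rad30Δ* cells after DSB induction, 14 of 31 and 9 of 15 fell (11.3% of all genes). With all libraries, 2 of 13 synthetase genes fell and 1 rose, and 3 of 16 activator genes fell. Of 8 assembly genes 1 rose and 0 fell, and 0 of 8 further large subunit genes and 0 of 9 translation factor genes passed. Without that replicate 7, 4, 1, 0 and 3 fell in the same order. Of 6 regulator genes 0 passed in G2/M arrest. Unadjusted, 0 of 6 had a p under 0.05, against 706 higher and 785 lower of all 6490 genes tested. PUF3 had 45.2, 48.2 and 49.2 CPM in WT and 56.2, 53.5 and 48.7 CPM in *rad30Δ* libraries (adjusted p = 0.49), and the groups overlapped. HAP4, the activating subunit of the Hap complex, had 430.1, 426 and 448 CPM against 502, 495 and 364 CPM (adjusted p = 0.90). After DSB induction HAP4 was higher in *rad30Δ* cells, with 323, 316 and 295 CPM against 712, 425 and 332 CPM (adjusted p = 0.042), and HAP5, another subunit, was higher with a log2 fold change of 0.36 ± 0.08 (adjusted p = 0.0055). For HAP4, replicate 3 was the lowest of the 3 *rad30Δ* libraries, unlike for the large subunit genes.

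**Figure D5:**
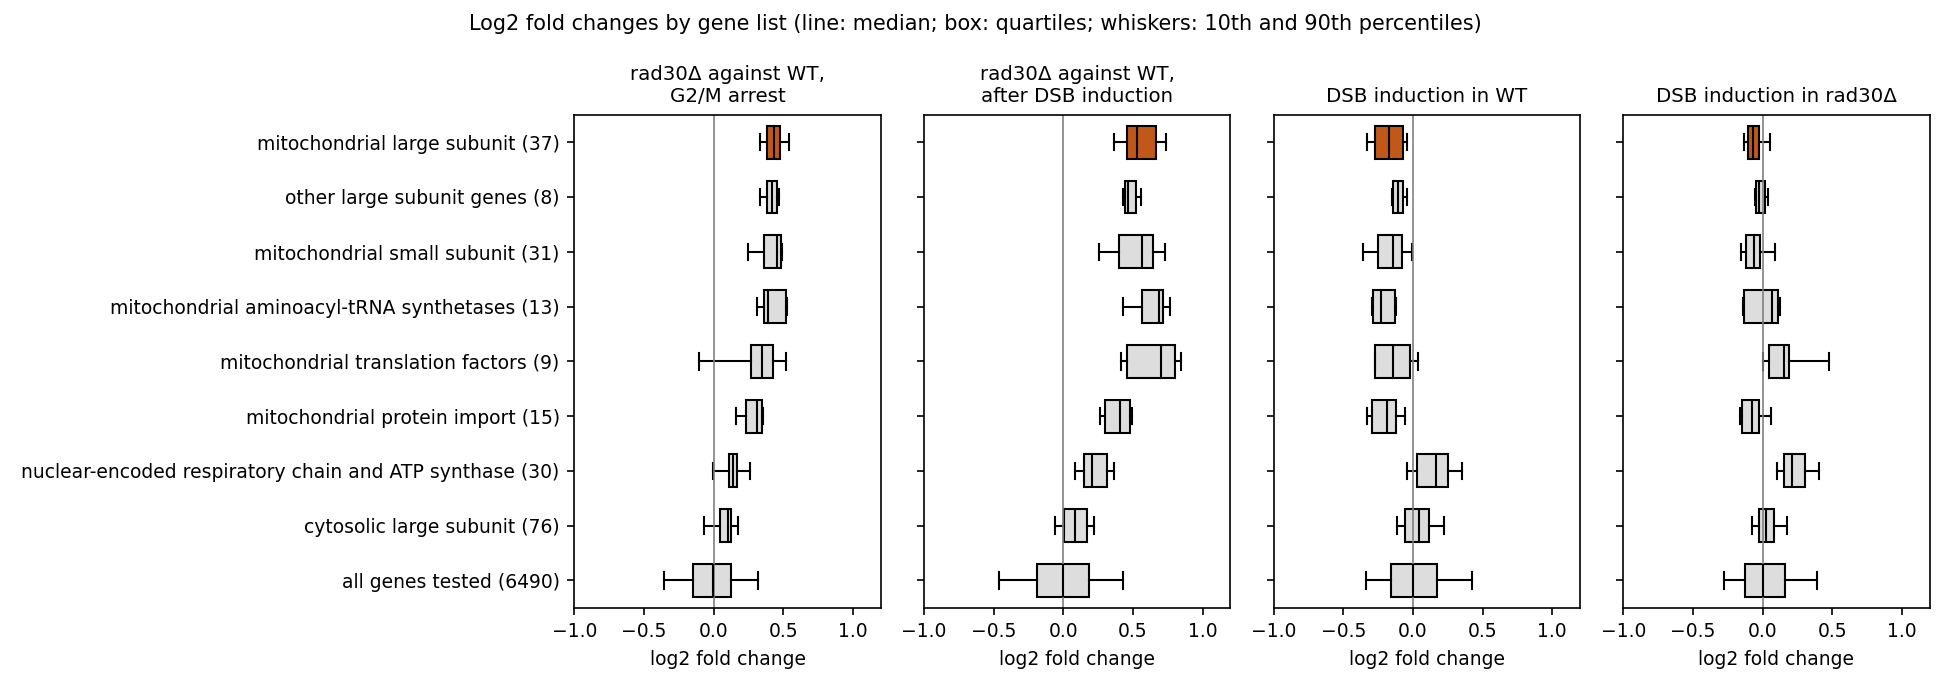
Log2 fold changes of the mitochondrial large subunit genes (orange), related gene lists and all genes tested in 4 comparisons; lines are medians, boxes quartiles and whiskers the 10th and 90th percentiles. The large subunit genes have medians of 0.44 and 0.53 between the strains, −0.17 with DSB induction in WT and −0.07 in *rad30Δ* cells, against −0.001, 0.001, 0.004 and 0.004 over all genes tested.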

How the data were processed

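The deposited count table holds whole-number read counts per gene for 7123 genes in 12 libraries. Per the study's methods, the authors enriched mRNA, sequenced it in pairs on an Illumina instrument, trimmed with cutadapt, mapped to sacCer3 with HISAT2, dropped duplicates with Picard and counted with featureCounts. The sources used here give neither the versions nor the strand setting. The 4 deposited tables of the authors' own comparisons were not used.

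Differential expression was tested with edgeR 4.0.16 (R 4.3.3): genes with at least 10 reads in total (6490), TMM scaling, all 12 libraries in 1 fit with 4 groups, the quasi-likelihood test, Benjamini-Hochberg adjustment over all genes tested and a threshold of 0.05. On simulated data for *rad30Δ* against WT cells in G2/M arrest (6490 genes), 81% of genes changed 1.5-fold and 98% of those changed 2-fold were recovered, with 3.24% false calls. The changed genes were drawn only from genes above a minimum mean level. The summed level of the large subunit genes differed 1.35-fold, less than either setting, and recovery of differences of that size was not simulated. Positions and motifs came from R64, to which 6044 genes matched.

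Members and lists were chosen with earlier results of these data known. Full statistics were given, per comparison, for up to 6 members with the smallest p among those called with groups that do not overlap in each direction, the 2 highest and 2 lowest log2 fold changes, the 4 smallest p of the interaction, and up to 3 genes of each of 11 lists. Replicates differed beyond sampling noise. Libraries of equal replicate number before and after DSB induction had residual correlations of 0.19, 0.15 and 0.34 in *rad30Δ* cells, which met the condition for pairing (all above 0.1), and of 0.04, 0.10 and 0.00 in WT cells. Between the strains, libraries of equal replicate number had residual correlations of 0.005, 0.16 and 0.008 in G2/M arrest. After DSB induction these were −0.01, 0.07 and 0.13, so the condition was not met across strains. The reported fit has no block, and the blocked values are given as an alternative. Alternatives were DESeq2 1.42.0, RLE scaling, filterByExpr, no filter, the libraries compared alone, a replicate block and leaving out each library.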

Additional observations from a re-analysis of the deposited data

How the results depend on the processing

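RLE scaling, no filter and filterByExpr gave the same counts as reported in all 5 comparisons, and DESeq2 called 27 genes higher in G2/M arrested *rad30Δ* cells, 4 lower with DSB induction in WT cells and 31 higher in *rad30Δ* cells after DSB induction. With only the libraries compared in the fit, these counts were 36, 19 and 23. With a replicate block they were 23, 4 and 32. Replicates were blocked within each strain for DSB induction and the interaction, and across the strains for the strain comparisons (23 and 32). The block gave 0 calls in *rad30Δ* cells with DSB induction (median log2 fold change −0.09) and in the interaction (median 0.09), so it changed no direction. Leaving out each of the 12 libraries in turn gave 7 to 36 genes higher in G2/M arrested *rad30Δ* cells, 0 to 16 lower with DSB induction in WT cells, 0 to 17 lower in *rad30Δ* cells and 23 to 35 higher in *rad30Δ* cells after DSB induction. The median log2 fold change then ranged from 0.40 to 0.47, −0.20 to −0.14, −0.26 to 0.045 and 0.38 to 0.66 in the same order, and from −0.10 to 0.22 in the interaction. The counts of 36, 16 and 17 came from the fit without *rad30Δ* replicate 3 after DSB induction. In that fit 8.16%, 11.3% and 4.71% of all genes were called in the same directions. For the other alternative fits the share over all genes is not given, so their counts cannot be set against it. Among the genes given with full statistics, 4 values changed sign, none of which had passed: without replicate 3 of G2/M arrested WT cells, MRPL23 was at −0.0187 (up to 0.103 without another library) and MRPL28 at −0.0131 (up to 0.041) with DSB induction in WT cells, and without *rad30Δ* replicate 3 after DSB induction, MRPL16 was at −0.0481 (up to 0.186) and MRPL7 at −0.0851 (up to 0.226) in *rad30Δ* cells. Over all 37 genes, that same fit turned the 7 positive values of the *rad30Δ* response negative (MRPL33 from 0.02 to −0.21 and MRPL23 from 0.09 to −0.21) and lowered the number of positive interaction coefficients from 27 to 12. MRPL38 had too few reads for any of these comparisons to be read.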

Other observations

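The respiratory chain and ATP synthase genes, whose products assemble with those made by the mitochondrial ribosome, included more genes that rose than fell with DSB induction. The difference from the large subunit genes was not tested. In WT cells 4 of 30 rose and 0 fell (median log2 fold change 0.17), and in *rad30Δ* cells 6 of 30 rose and 0 fell (median 0.21, and 0.19 without replicate 3), while 394 and 239 of all 6490 genes tested rose. Without replicate 3 of *rad30Δ* cells after DSB induction, 13 of 30 rose in WT and 7 of 30 in *rad30Δ* cells, and 711 and 321 of all 6473 genes tested. Examples are COX7, a cytochrome oxidase subunit, in WT cells (0.47 ± 0.12, adjusted p = 0.023) and QCR10, a subunit of the cytochrome bc1 complex, in *rad30Δ* cells (0.42 ± 0.08, adjusted p = 0.0081). In G2/M arrested *rad30Δ* cells 3 of 30 were higher than in WT cells (median 0.14), against 306 of all 6490 genes tested. Without that replicate 6 of 30 were higher, against 528 of all 6473 genes tested.

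Outside the large subunit genes and all lists used here, 711 nuclear genes had the element TGTANATA after the stop codon. In G2/M arrested *rad30Δ* cells 76 of them rose and 38 fell, with a median of 0.06. Of 5029 nuclear genes without the element 162 rose and 357 fell, with a median of −0.02. Genes of the lists were not taken out of these 5029, so the sets compared are unlike. In the import list, 2 of 7 genes with the element rose (median 0.31) and 2 of 8 without it (median 0.31). In the list of transcription and translational activators, 6 of 12 with it rose (median 0.30) and 1 of 4 without it (median −0.02). Without replicate 3 of *rad30Δ* cells after DSB induction, 131 of the 711 rose and 53 fell, 276 of 5027 without the element rose and 519 fell, 7 of 7 and 6 of 8 import genes rose, and 9 of 12 and 1 of 4 activator genes rose. These splits were chosen after values of the series were known and carry no test.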
